A study of Mus musculus with 5 samples.

Results

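The genes of the tumour necrosis factor (TNF) superfamily, its receptors and the TRAF adaptor proteins were followed in sorted mature CD8 single-positive thymocytes of mice. The members were taken by symbol: every row that starts with Tnfrsf, Tnfsf or Traf with a digit from 1 to 7, together with Tnf, Lta, Ltb, Ltbr, Fas, Fasl, Cd27, Cd70, Cd40 and Cd40lg. This gave 53 of 35976 gene rows: 24 receptors, 17 ligands, 7 TRAF adaptors, 3 proteins named for binding TRAF3, and Tnfsfm13 and Tnfsf13os, a fusion transcript and an antisense RNA of the Tnfsf12 and Tnfsf13 locus. Messenger RNA was compared between Runx3 +/+ mice, which carry only wild-type Runx3 (2 libraries), and Runx3 +/WRPW mice, which carry 1 wild-type allele and 1 allele named WRPW (3 libraries). The labels state no age, sex, strain or treatment, do not describe the allele further and do not tie any library to an animal. Replicate spread may therefore be technical, and each p-value speaks only of these samples.

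TNF superfamily ligands are mostly membrane proteins that act as trimers and gather their receptors on a neighbouring cell. Receptors with a cytoplasmic death domain, such as Fas and the TRAIL receptor, can start caspase-driven apoptosis. Receptors without it, such as CD27, 4-1BB, OX40 and GITR, recruit TRAF proteins, which lead to NF-kB and promote survival and costimulation of T cells. In the thymus the family is known for lymphotoxin and RANK ligand made by thymocytes, which act on the medullary epithelium. Runx3 is the transcription factor that silences Cd4 and maintains the CD8 lineage, and Runx proteins end in a short motif that binds TLE corepressors, of which WRPW is the form found in Hes repressors.

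Total counts ran from 15715242 to 43758550 per library. Runx3 +/WRPW library 2 stood apart, with a count at 27414 genes against 17237 to 18967 in each of the other 4 libraries, and it held 131 of the counts of members too low to be tested, against 11 to 40 elsewhere. Without it, all 11 called members below kept their calls. Of the markers of the labelled cell type, Cd8a was at 2201 to 2634 CPM (counts scaled to a fixed library size with TMM factors) and Cd4 at 5.35 CPM or less. Marker lists moved between the genotypes. The mature CD8 list summed to 8011 to 8053 CPM in Runx3 +/+ and 7056 to 7967 CPM in Runx3 +/WRPW, with 1 of 9 tested genes lower and 0 higher. The immature thymocyte list summed to 46.2 to 46.4 and 30.3 to 35.6 CPM, with 1 of 4 lower, Dntt, which encodes the terminal transferase of receptor rearrangement (3.57-fold, edgeR adjusted p = 0.028). Myeloid or dendritic cell genes summed to 55.2 to 64.4 and 58.3 to 102 CPM, mostly Cst3, with 0 of 4 called, while Csf1r (41 counts) and Flt3 (97 counts) stood out in Runx3 +/WRPW library 2. The erythroid list summed to 0.467 to 0.639 and 0.506 to 0.868 CPM, mostly Alas2, with 0 of 1 called. Of its other genes, Hbb-bs had 0 to 7 counts per library, and Hba-a1 and Hba-a2 had 0. The part of these shifts in the results below was not tested.

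Of the 53 members, 39 passed the low-count filter, 35 of them on either genotype alone. Tnfrsf11a, Tnfrsf21 and Cd40lg passed only through Runx3 +/WRPW and Tnfrsf19 only through Runx3 +/+. In edgeR's quasi-likelihood test, 11 members had an adjusted p under 0.05, with 6 higher and 5 lower in Runx3 +/WRPW. That is 28.2% of those tested, against 13.6% of all 13666 genes (6.24% higher and 7.33% lower). The difference between these shares was not tested. The 11 include Tnfrsf11a and Tnfrsf19, each of which passed the filter only through the genotype where it was high. The median log2 change was 0.04 among the members and 0.02 among all genes. In 23 of the 39 the levels of the genotypes did not overlap, which was the case for 48.3% of all genes tested, so lack of overlap between 2 and 3 libraries is common here. The higher genes were the ligands Tnfsf14, Tnfsf8 and Tnfsf10 and the receptors Tnfrsf11a, Tnfrsf10b and Tnfrsf22, and the lower genes were the receptors Tnfrsf9, Cd27, Tnfrsf25, Tnfrsf13c and Tnfrsf19. No ligand was called lower, 0 of 7 TRAF genes were called, and the most abundant member, Ltb, was not called.

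**Figure D1:**
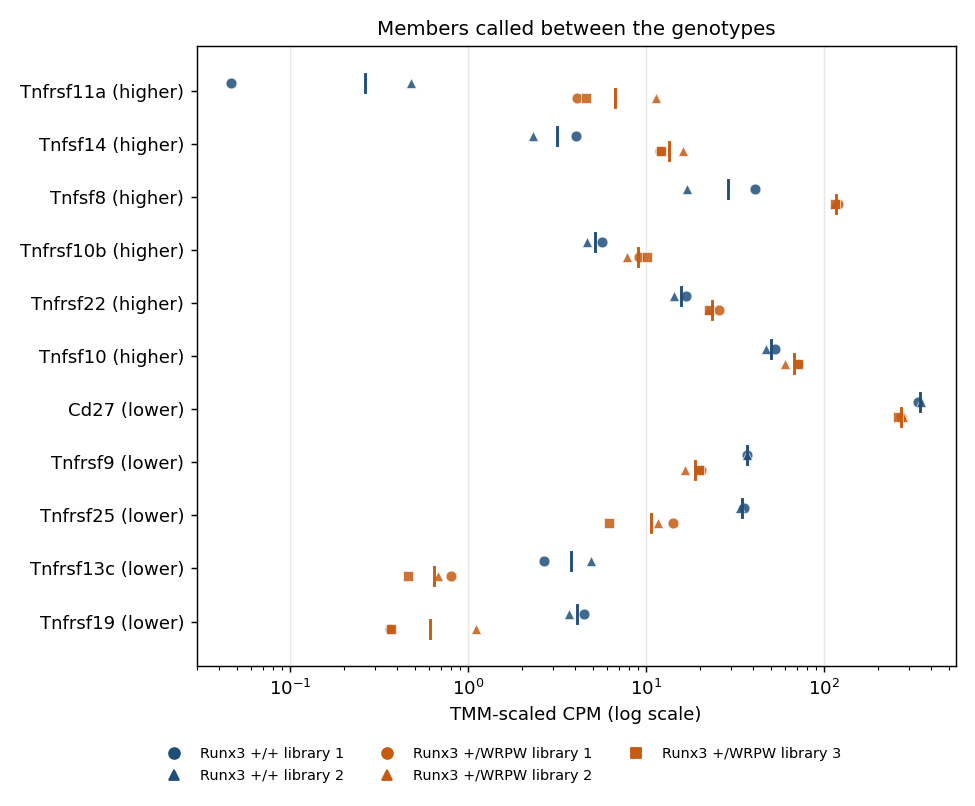
Levels of the 11 called members in each library, in TMM-scaled CPM on a log axis. Points are libraries, short bars the mean of a genotype (2 Runx3 +/+ and 3 Runx3 +/WRPW libraries); the genotypes do not overlap in any of the 11, and Tnfrsf11a spans the widest gap.

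Among ligands, 3 of 10 tested were higher and 0 lower, with a median log2 change of 0.43. Tnfsf14 (chromosome 17, 57189474 to 57194181, mm10) encodes LIGHT, a ligand that costimulates T cells through HVEM. Runx3 +/+ libraries 1 and 2 held 4.01 and 2.32 CPM of it, against 12.0, 16.1 and 12.1 CPM across Runx3 +/WRPW libraries 1, 2 and 3. Every Runx3 +/WRPW library was thus well above both wild-type libraries. The fitted change was 4.26-fold higher (log2 2.09 ± 0.28 SE, edgeR adjusted p = 0.0082).

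Tnfsf8 (chromosome 4, 63831202 to 63861508) encodes the ligand of CD30 and, of the ligands that rose, had the highest level in Runx3 +/WRPW, whereas Tnfsf10 was the higher in Runx3 +/+. Its levels were 41.0 and 16.9 CPM in Runx3 +/+ and 120, 114 and 116 CPM in Runx3 +/WRPW. The Runx3 +/WRPW libraries lay close together, while the wild-type pair was far apart, library 1 being the higher. The rise was 4.05-fold (log2 2.02 ± 0.35 SE, edgeR adjusted p = 0.017), and its size rests on the wild-type library used: it was 2.75 on the log2 scale without Runx3 +/+ library 1 and 1.501 without library 2, both passing the test. Without Runx3 +/WRPW library 1 or 3 it was 1.99 and 2.03, just missing the threshold (adjusted p = 0.0505 and 0.0511).

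Tnfsf10 (chromosome 3, 27317077 to 27339665) encodes TRAIL, the ligand of the death receptor encoded by Tnfrsf10b. It went from 53.3 and 47.0 CPM to 71.1, 60.4 and 71.3 CPM. The shift was small but did not overlap, at 1.36-fold higher (log2 0.44 ± 0.10 SE, edgeR adjusted p = 0.0379). Fasl, the death ligand of cytotoxic lymphocytes, was at 0.607 and 0.639 CPM in Runx3 +/+ and reached 1.67, 2.77 and 1.10 CPM with the WRPW allele. The log2 difference of 1.56 ± 0.55 did not pass (adjusted p = 0.119), at counts of 13 and 16 in the wild-type libraries.

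The lymphotoxin genes were not called. Ltb, which encodes lymphotoxin beta, had the highest level per exon length of all members, at 487 CPM per kilobase in Runx3 +/+ and 401 in Runx3 +/WRPW. Its CPM were 638 and 838 against 642, 557 and 624, so the genotypes overlapped (log2 difference -0.28, 95% interval -0.58 to 0.03). Lta, which encodes the soluble lymphotoxin alpha, was at 27.0 and 34.0 against 29.8, 24.6 and 27.5 CPM. Tnf itself was at 16.1 and 16.3 CPM against 14.9, 13.5 and 11.5 CPM (log2 difference -0.27, adjusted p = 0.244). Tnfsf11, which encodes RANK ligand, was at 9.01 and 7.43 against 11.3, 9.35 and 12.0 CPM (log2 difference 0.41, adjusted p = 0.151). Tnfsf9, the ligand of 4-1BB, was at 3.41 to 7.38 CPM and Cd40lg, the helper ligand of B cells, at 0.246 to 0.719 CPM, with overlap in both. The other 7 ligands were under the filter. Cd70 had 1 count in all, Tnfsf13 had 0, and Tnfsf12, Tnfsf13b and Tnfsf4 had 0 to 14 counts per library. Tnfsf18 (47 counts) and Tnfsf15 (36 counts) were seen in Runx3 +/WRPW library 2, with 0 or 1 count in each of the other libraries.

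Of the 6 costimulatory receptors tested, 2 fell and 4 were not called. Tnfrsf9 (chromosome 4, 150920155 to 150946104) encodes 4-1BB, which appears on T cells after receptor stimulation. It had the smallest p-value of all members. Its levels were 37.1 and 36.9 CPM in Runx3 +/+ and 20.4, 16.5 and 19.8 CPM in Runx3 +/WRPW, so that each genotype formed a narrow band. The fall was 1.95-fold (log2 -0.96 ± 0.11 SE, edgeR adjusted p = 0.00483). In the list of genes of CD4 or regulatory T cells, where 4-1BB is also high, 2 of 6 tested markers were lower and 0 higher. Foxp3 averaged 7.36 ± 3.21 CPM (SD, n = 2) in Runx3 +/+ and 0.759 ± 0.394 (SD, n = 3) in Runx3 +/WRPW. Ctla4 averaged 6.39 ± 3.10 and 1.26 ± 0.272 CPM. Not called were Ikzf2 (means of 250 and 244 CPM), Il2ra (3.87 and 5.03), Gata3 (43.5 and 31.1) and Cd4 (2.91 and 0.192). The summed level of that list was 245 to 383 CPM in Runx3 +/+ and 206 to 362 CPM in Runx3 +/WRPW, and its part in the Tnfrsf9 result was not tested. In bulk RNA, fewer cells of a type and less RNA per cell cannot be told apart.

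Cd27 (chromosome 6, 125232620 to 125237136) encodes the receptor of CD70 on naive T cells and thymocytes. It was the second most abundant member per length and went from 338 and 350 CPM to 272, 276 and 258 CPM. The fall was slight, 1.27-fold, yet larger than the spread within the genotypes (log2 -0.35 ± 0.07 SE, edgeR adjusted p = 0.0223). In the reference, 5.5% of its exon length is shared with the microRNA gene Mir8113. Cd3d, a T cell receptor subunit gene and the only called gene of the mature CD8 list, fell to a similar degree (1.23-fold, edgeR adjusted p = 0.039). The rest of that list went both ways, from log2 -0.38 for Cd8b1 to 0.75 for Il7r, with Cd8a at 0.03. The bearing of these genes on Cd27 was not tested.

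The other costimulatory receptors overlapped between the genotypes. Tnfrsf1b, which encodes TNF receptor 2, was at 171 and 146 against 149, 144 and 127 CPM (log2 difference -0.17, 95% interval -0.42 to 0.07). Tnfrsf14, the HVEM receptor of LIGHT, was at 126 and 109 against 148, 121 and 111 CPM (0.11, -0.21 to 0.44). Tnfrsf18, which encodes GITR, was at 70.4 and 55.5 against 80.1, 66.1 and 67.9 CPM (0.19, -0.13 to 0.51). In its exons 27.2% of the length overlaps Gm16008. Tnfrsf4, which encodes OX40, was at 8.07 to 11.7 CPM (0.05, -0.40 to 0.50). A change of 2-fold lies outside each of these intervals. Cd40 and Tnfrsf8, the CD30 gene, had 0 counts in the Runx3 +/+ libraries and 8 and 6 counts in Runx3 +/WRPW library 2, with at most 1 count in libraries 1 and 3 of that genotype.

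Among the 5 death-domain receptors, 1 fell, 1 rose and 3 were not called. Tnfrsf25 (chromosome 4, 152115528 to 152120119) encodes DR3, which has a death domain but is known in T cells as a costimulatory receptor of the ligand TL1A. It fell 3.22-fold, from 35.6 and 33.7 CPM to 14.1, 11.6 and 6.16 CPM (log2 -1.69 ± 0.31 SE, edgeR adjusted p = 0.0213). Runx3 +/WRPW libraries varied among themselves, with library 3 lowest, but all lay below both wild-type libraries. Tnfrsf10b (chromosome 14, 69767472 to 69784411), the death receptor of TRAIL, rose 1.76-fold, from 5.65 and 4.67 CPM to 9.07, 7.81 and 10.2 CPM (log2 0.81 ± 0.18 SE, edgeR adjusted p = 0.0359).

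Fas, the best known death receptor of lymphocytes, showed no such difference, at 78.6 and 86.4 CPM in Runx3 +/+ and 86.3, 70.1 and 85.05 CPM in Runx3 +/WRPW. The log2 difference was -0.03 (95% interval -0.28 to 0.22), with its sign turning under upper-quartile scaling. Tnfrsf1a, which encodes TNF receptor 1, was at 66.6 and 63.8 against 60.6, 56.5 and 61.7 CPM (-0.12, -0.28 to 0.03). Tnfrsf21, which encodes DR6, was near the limit of counting at 0.297 to 2.09 CPM, highest in Runx3 +/WRPW library 2, and gave no usable direction (0.43, -1.80 to 2.67).

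Set against each other as grouped above, the receptor classes kept a ratio that overlapped between the genotypes. The summed CPM of the 6 costimulatory receptors was 753 and 705 in Runx3 +/+ and 679, 633 and 594 in Runx3 +/WRPW, with Cd27 making up 40.0% to 49.6% of it. That of the 5 death-domain receptors was 187 and 189 against 170, 148 and 164. Both sums were lower in every Runx3 +/WRPW library, and their ratio was 4.02 and 3.73 against 3.99, 4.27 and 3.63. The lower death-domain sum rested largely on 1 gene: its mean went from 188 to 161 CPM, and that of Tnfrsf25 alone from 34.6 to 10.6 CPM. The mean log2 level (CPM plus 0.5) of the costimulatory receptors exceeded that of the death-domain receptors by 2.13 ± 0.00459 (SD, n = 2) and 2.14 ± 0.179 (SD, n = 3). Without Tnfrsf21, which has few counts and passed the filter through Runx3 +/WRPW alone, the excess was 1.26 and 1.11 against 1.25, 1.28 and 1.31, again with overlap. The medians of the log2 changes were -0.06 for the costimulatory and -0.03 for the death-domain class. Within the latter the called genes moved in opposite directions. With Tnfrsf25 left out for its costimulatory role, the ratio of the sums was 4.96 and 4.54 against 4.35, 4.64 and 3.77, and the genotypes still overlapped. A ratio with Tnfrsf25 counted among the costimulatory receptors was not computed, so the overlap is shown only for the groupings given.

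**Figure D2:**
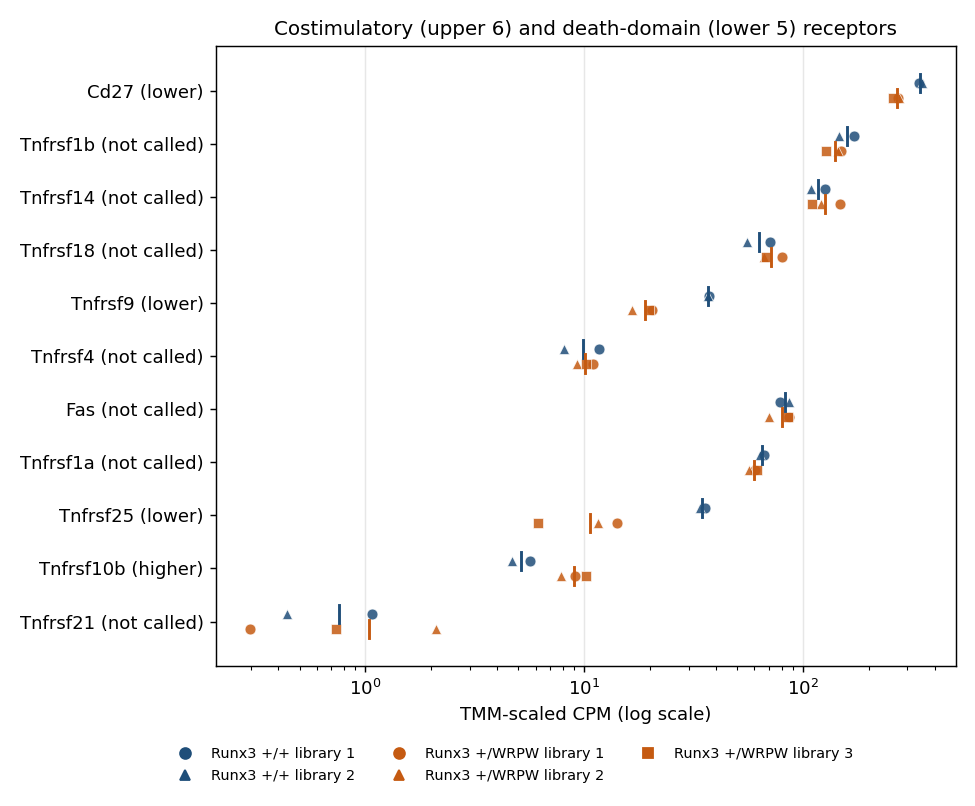
Levels of the costimulatory (6, upper) and death-domain (5, lower) receptors tested, in TMM-scaled CPM on a log axis, each class ordered by its Runx3 +/+ mean. Points are libraries and bars genotype means; Cd27, Tnfrsf9 and Tnfrsf25 are shifted down and Tnfrsf10b up, while Fas, Tnfrsf14 and Tnfrsf4 overlap.

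The remaining receptors held the largest changes of the family, mostly at low levels, with 2 higher and 2 lower of 8 tested. Tnfrsf11a (chromosome 1, 105780673 to 105849444) encodes RANK, the receptor of RANK ligand on osteoclast precursors, dendritic cells and medullary epithelium. Raw counts were 1 and 12 for Runx3 +/+ against 180, 184 and 100 for Runx3 +/WRPW, or 0.0467 and 0.479 CPM against 4.11, 11.3 and 4.60 CPM. Library 2 of Runx3 +/WRPW was the highest, but libraries 1 and 3 also exceeded both wild-type libraries by far. The fitted rise was 24.0-fold (log2 4.59, 95% interval 2.42 to 6.75, edgeR adjusted p = 0.0248), and 3.96 on the log2 scale without library 2 (adjusted p = 0.0301). Tnfrsf11a passed the low-count filter only through Runx3 +/WRPW, the genotype where it was high. Limma-voom gave 4.71 and did not call it (adjusted p = 0.11). The list of thymic epithelium or stroma genes summed to 19.6 CPM in Runx3 +/WRPW library 2. It summed to 4.64 and 5.15 CPM in the other Runx3 +/WRPW libraries and 5.18 and 5.79 CPM in Runx3 +/+. In library 2, Epcam (7.57 CPM), Foxn1 (4.61), Col1a1 (4.25), Pdgfra (1.35) and Psmb11 (1.17) made up most of it. Krt14, Krt5 and Aire were at 0.308, 0.246 and 0.123 CPM there and Krt8 at 0. Of the 2 genes tested in that list, 0 were called. The part of epithelial or stromal cells in the Tnfrsf11a result was not tested.

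Tnfrsf22 (chromosome 7, 143634808 to 143649675) encodes a decoy receptor of TRAIL. It rose 1.52-fold, from 16.8 and 14.4 CPM to 25.8, 22.2 and 22.7 CPM (log2 0.60 ± 0.12 SE, edgeR adjusted p = 0.0267). Its neighbour and close relative Tnfrsf23, also a TRAIL decoy, was at 1.87 and 1.76 against 2.08, 2.28 and 2.21 CPM and was not called. Of the 50-base stretches in Tnfrsf22 transcripts, 27.4% also occur in another gene, chiefly Tnfrsf23, so the split of reads between the pair is uncertain. Tnfrsf26, the third gene of that cluster, was at 35.3 and 36.6 against 43.1, 36.9 and 41.3 CPM (log2 difference 0.18, adjusted p = 0.231).

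Tnfrsf19 (chromosome 14, 60963834 to 61046855), which encodes the orphan receptor TROY, fell 6.83-fold, from 4.48 and 3.68 CPM to 0.365, 1.11 and 0.368 CPM (log2 -2.77 ± 0.57 SE, edgeR adjusted p = 0.0301). Tnfrsf13c (chromosome 15, 82221742 to 82224380), which encodes the BAFF receptor of B cells, fell 5.73-fold, from 2.66 and 4.87 CPM to 0.799, 0.677 and 0.460 CPM (log2 -2.52 ± 0.44 SE, edgeR adjusted p = 0.0187). Both were low to begin with, and Tnfrsf19 passed the low-count filter only through Runx3 +/+, where it was the higher. The B cell list summed to 9.80 and 9.95 CPM in Runx3 +/+ and 3.13 to 5.29 CPM in Runx3 +/WRPW, with 1 of 2 tested genes lower, Cd79b, which averaged 7.56 ± 0.00801 (SD, n = 2) and 1.92 ± 0.233 CPM (SD, n = 3). Ms4a1, which encodes the B cell surface protein CD20, had 0 and 1 count in Runx3 +/+ and 0, 18 and 1 in Runx3 +/WRPW, and Pax5, a B cell transcription factor, 0 and 3 against 2, 12 and 1. Unlike Cd79b, both were highest in Runx3 +/WRPW library 2. The part of B cells in the Tnfrsf13c result was not tested. Tnfrsf13b, which encodes TACI, another receptor of BAFF, was at 52.2 and 45.9 against 50.1, 42.3 and 45.6 CPM and overlapped.

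Tnfrsf12a, the TWEAK receptor, was at 3.78 and 3.87 CPM against 1.44, 1.23 and 2.21 CPM. Its log2 difference of -1.23 ± 0.35 just missed the threshold in edgeR (adjusted p = 0.0701) and passed it in DESeq2 (adjusted p = 0.015) and in limma-voom (adjusted p = 0.0334). Tnfrsf11b, Tnfrsf17 and Ltbr stayed under the filter with 0 to 12 counts per library. The lymphotoxin beta receptor gene Ltbr, which stromal cells use to read lymphotoxin, was at 0.0933 to 0.369 CPM.

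**Figure D3:**
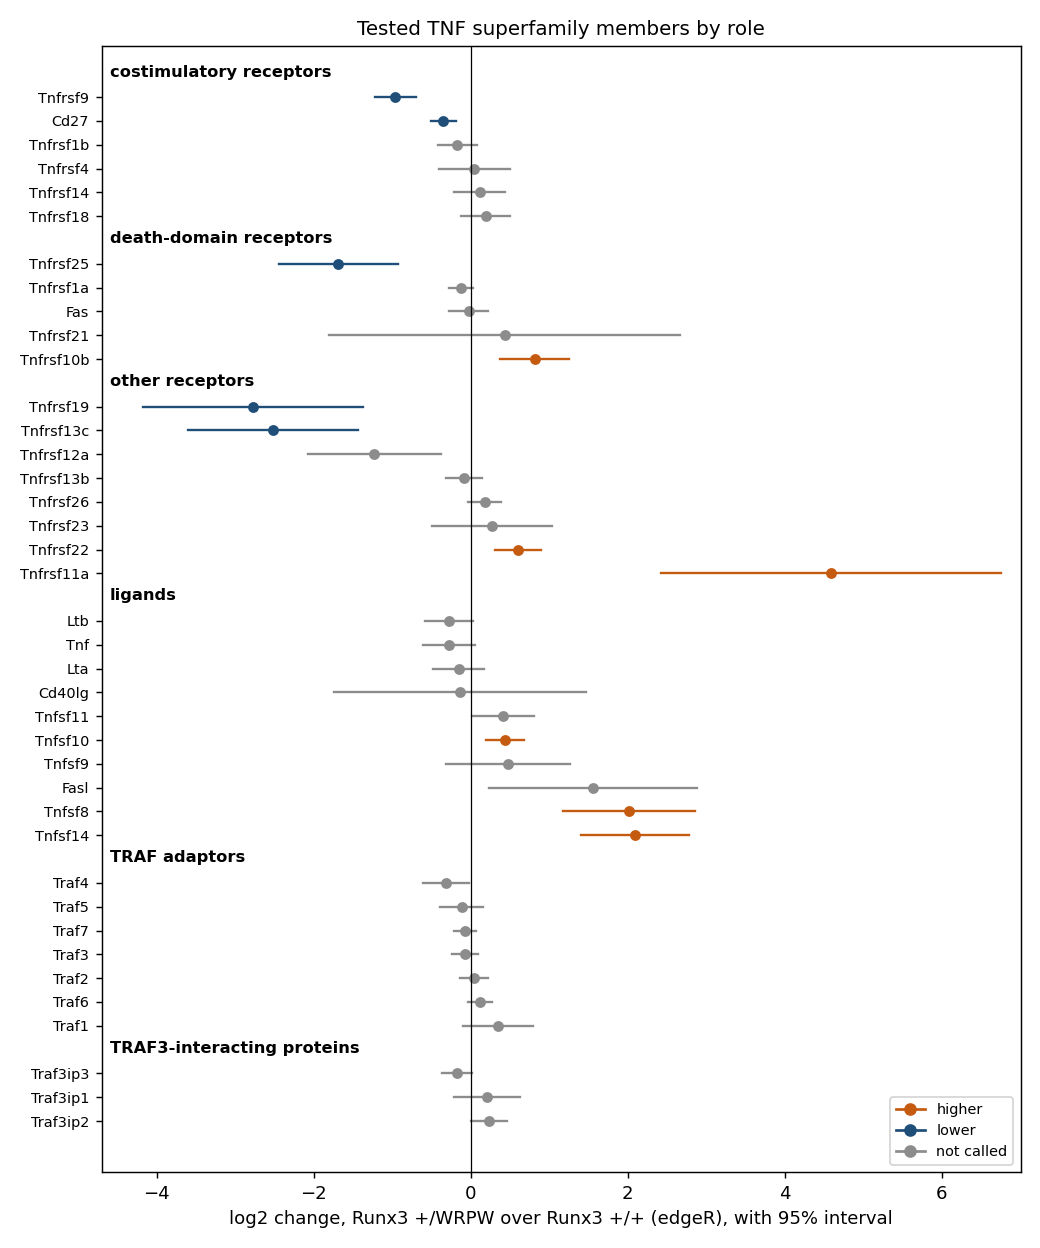
Log2 change of the 39 tested members, Runx3 +/WRPW over Runx3 +/+, as fitted by edgeR, with 95% intervals and grouped by role. Orange and blue mark genes called higher and lower; the 7 TRAF genes lie between -0.32 and 0.35, while receptors outside the costimulatory and death-domain classes reach from -2.77 to 4.59.

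The TRAF adaptors, which couple the receptors to ubiquitin signalling and kinases, were all expressed and none was called. Levels ran from 25.0 CPM for Traf5 to 187 CPM for Traf3, the brake on noncanonical NF-kB. Log2 differences lay between -0.32 for Traf4 and 0.35 for Traf1, and the 95% intervals of all 7 together spanned -0.61 to 0.80, so that a 2-fold change lay outside each. Only Traf4 had an unadjusted p under 0.05 (116.7 and 148 against 108, 95.7 and 115 CPM, adjusted p = 0.144), and DESeq2 called it (adjusted p = 0.0464). Traf1, an NF-kB target as well as an adaptor, was at 116 and 104 CPM against 126, 176 and 116 CPM, with Runx3 +/WRPW library 2 highest. Traf2, the adaptor of TNF receptor 2 and 4-1BB, was at 69.2 and 78.4 against 75.1, 75.0 and 76.9 CPM, and Traf6, which also serves Toll-like receptors and RANK, at 92.1 and 86.2 against 95.05, 93.7 and 100.03 CPM. Traf7 was at 122 to 135 CPM. Of the proteins named for binding TRAF3, Traf3ip3, a lymphocyte protein, was at 377 and 423 against 342, 348 and 372 CPM (log2 difference -0.17, adjusted p = 0.209), Traf3ip2, the interleukin-17 receptor adaptor Act1, at 37.8 to 49.6 CPM and Traf3ip1, a cilia protein, at 22.8 to 34.7 CPM.

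Further down the pathway, 6 of 50 tested genes were called, 12.0% against the 13.6% of all genes. In NF-kB signalling, 1 of 31 was lower and 1 higher, with a median log2 change of -0.01. Bcl3, a nuclear IkB protein, fell 2.25-fold, from 28.7 and 43.9 CPM to 19.1, 13.4 and 15.4 CPM (edgeR adjusted p = 0.0223). Tnip2, which binds the deubiquitinase A20, rose 1.45-fold, from 12.4 and 11.7 to 16.99, 18.8 and 16.6 CPM (edgeR adjusted p = 0.0303). In the list of death signalling genes, 4 of 19 tested were lower and 0 higher, with a median of -0.27. Among them were Birc5, the mitotic protein survivin (4.49-fold), Dap3, a mitochondrial ribosomal protein (1.54-fold), and Daxx, a nuclear histone chaperone (1.42-fold). With any 1 library left out, 0 to 2 of the downstream genes were called in place of 6.

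Ligands and receptors that pair were compared side by side. For TRAIL, the ligand, the death receptor and the more abundant decoy were all higher, by log2 0.44, 0.81 and 0.60. The summed decoys (Tnfrsf22 and Tnfrsf23) over Tnfrsf10b, a ratio of CPM, were 3.30 and 3.46 in Runx3 +/+ and 3.07, 3.13 and 2.45 in Runx3 +/WRPW. For LIGHT, Tnfsf14 rose while its receptor Tnfrsf14 overlapped, so that the ratio of their CPM went from 0.0319 and 0.0212 to 0.0812, 0.132 and 0.110. The receptors that fell had ligands at or under the filter in the same cells (Cd70 for Cd27, Tnfsf15 for Tnfrsf25, Tnfsf13b for Tnfrsf13c) or not called (Tnfsf9 for Tnfrsf9), and CD30 ligand rose while its receptor gene Tnfrsf8 had 0 counts in 4 of 5 libraries. Several called members lie in the genome beside members that were not called or were too low to be tested. On chromosome 17, Tnfsf14 rose while Tnfsf9 was not called and Cd70 was nearly silent and not tested. On chromosome 4, Tnfsf8 rose beside Tnfsf15, which was not tested either. On chromosome 6, Cd27 fell while Tnfrsf1a was not called.

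Windows ahead of RefSeq starts are shown for Tnfsf14, the ligand with the largest rise, and for Tnfrsf9, Tnfrsf25 and Tnfrsf13c, receptors that fell, so that the sequence next to genes of opposite direction can be compared. Each is the stretch of 250 bases that ends just before a RefSeq start (GRCm38.p6), printed 5′ to 3′ on the gene's strand, and 0 of its bases lie in an annotated exon. That of Tnfrsf25 precedes an internal start and lies within the gene span given above. Capitals mark matches, on either strand, to the Runx core motifs TGTGGT and TGCGGT or to the consensus of NF-kB. RefSeq gives Tnfrsf9 and Tnfrsf25 each a second window, which overlaps an exon and is not printed.
Tnfsf14 (chr17:57194182-57194431, minus strand): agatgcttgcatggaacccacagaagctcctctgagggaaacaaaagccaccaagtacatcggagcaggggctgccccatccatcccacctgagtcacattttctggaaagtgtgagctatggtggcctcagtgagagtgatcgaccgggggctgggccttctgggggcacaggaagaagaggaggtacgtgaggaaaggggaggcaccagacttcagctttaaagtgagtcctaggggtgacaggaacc
Tnfrsf9 (chr4:150919905-150920154, plus strand): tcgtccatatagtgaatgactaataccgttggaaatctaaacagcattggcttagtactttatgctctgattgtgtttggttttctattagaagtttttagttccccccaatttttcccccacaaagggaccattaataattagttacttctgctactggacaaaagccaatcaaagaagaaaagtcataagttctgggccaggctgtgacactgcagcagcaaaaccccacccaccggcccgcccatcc
Tnfrsf25 (chr4:152115684-152115933, plus strand): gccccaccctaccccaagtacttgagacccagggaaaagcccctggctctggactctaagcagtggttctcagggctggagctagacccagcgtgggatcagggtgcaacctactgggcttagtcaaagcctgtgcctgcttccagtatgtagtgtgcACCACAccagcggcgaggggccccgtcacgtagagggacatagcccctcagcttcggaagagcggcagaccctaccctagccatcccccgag
Tnfrsf13c (chr15:82224381-82224630, minus strand): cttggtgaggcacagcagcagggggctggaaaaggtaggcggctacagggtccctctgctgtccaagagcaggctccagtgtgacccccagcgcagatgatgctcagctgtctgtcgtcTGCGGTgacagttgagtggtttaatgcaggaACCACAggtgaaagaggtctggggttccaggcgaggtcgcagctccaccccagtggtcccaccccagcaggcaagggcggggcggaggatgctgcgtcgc
The windows of Tnfsf14 and Tnfrsf9 hold none of these letters. That of Tnfrsf25 holds a Runx core on the opposite strand 92 bases before the start, and that of Tnfrsf13c holds 1 of each Runx core, at 131 and 100 bases. The second windows of Tnfrsf9 and Tnfrsf25 hold NF-kB matches that begin 43 and 28 bases before their starts, in Tnfrsf9 with another overlapping it by all but 1 base. The windows of Tnfsf8, Cd27 and Tnfrsf19 hold no match and are not printed. Among the called members, only Tnfrsf25 and Tnfrsf13c have a window with a Runx core, and both are printed.

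Windows were listed for 41 of the 53 members (45 windows). A Runx core was present in 17.8% of them, against 18.6% of all 32851 windows of the same length, and the NF-kB consensus in 11.1% against 7.25%. By direction, 0 of 4 windows of higher genes and 2 of 8 windows of lower genes held a Runx core. A match in these letters describes the sequence and shows no binding.

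The calls were recomputed with each library left out. Without Runx3 +/WRPW library 2, 11 of the 11 called members kept call and direction. Without Runx3 +/WRPW library 1 or 3, 4 and 3 kept it, and without Runx3 +/+ library 1 or 2, 2 (Tnfsf14 and Tnfsf8) and 1 (Tnfsf8), with the lone wild-type library assumed to vary like the other genotype. Among all genes, 5.71% and 6.97% were called without Runx3 +/WRPW library 1 and 3, and 2.95% and 1.52% without Runx3 +/+ library 1 and 2. None of the 11 changed sign in any of these fits. Tnfrsf9 stayed between -1.02 and -0.88 and Cd27 between -0.41 and -0.32 on the log2 scale, whereas Tnfrsf11a ran from 3.74 to 7.01.

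**Figure D4:**
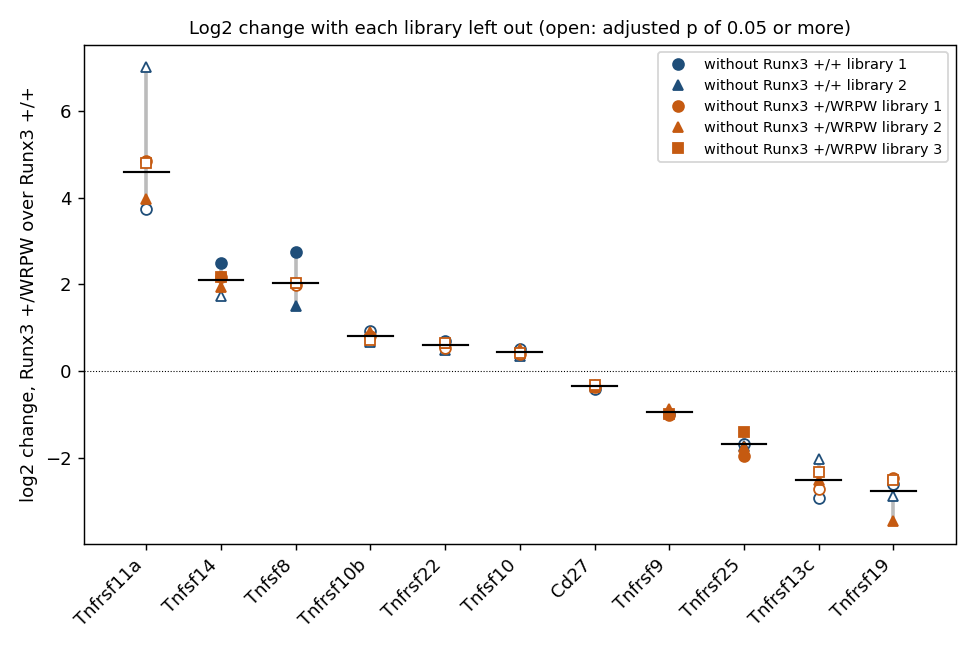
Log2 change of the 11 called members in the fits that leave out 1 library each, with the value from all 5 libraries as a black bar. Filled points have an adjusted p under 0.05, open points do not; Tnfsf8 and Tnfsf14 stay well above 0 and Tnfrsf9 close to its value throughout, while Tnfrsf11a moves most.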

How the data were processed

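Bulk RNA-seq of 5 libraries of sorted mature CD8 thymocytes was analysed, 2 Runx3 +/+ and 3 Runx3 +/WRPW, grouped by the genotype label. The authors deposited 1 file per library with unnormalised counts for each gene symbol. By the submitters' processing notes, reads went through cutadapt 4.0, alignment tool HISAT2 2.2.1, counter featureCounts 2.0.8 and edgeR 3.36.0, with mm10 as genome. Annotation, strand and multi-mapping settings were not given in the sources used here, so antisense or overlapping genes and close paralogs may share reads. The file header of Runx3 +/+ library 2 bears the number 3; files were assigned by sample record. No pair of libraries agreed within sampling noise (chi-square per gene of at least 15.3).

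The contrast was fitted across all genes with edgeR 4.0.16 in R 4.3.3 (TMM, filterByExpr with a minimum count of 10, glmQLFit, glmQLFTest), with calls at an adjusted p (Benjamini-Hochberg, 13666 genes) below 0.05. The fit was also run on simulated counts with a single dispersion for all genes, which cannot show how it performs on libraries that vary like these. Levels are TMM-scaled CPM, SE is the absolute log2 change over the square root of F, and intervals are 95% from the same fit. At the lowest depth 3 counts equal 0.185 CPM, a floor for counting error only. Coordinates and upstream windows are from RefSeq (GRCm38.p6), exon lengths and overlaps from GENCODE M21. The members and lists were chosen with earlier results of these data known. Values per library were set for each called member, the 3 uncalled members of highest level in each role and those with a log2 change of at least 1, and up to 6 called genes of each downstream list. Other members were detailed after their values were seen. Some genes of the marker and downstream lists are not reported here by name. Calls and log2 changes were also computed with DESeq2 1.42.0, with limma-voom (limma 3.58.1), with RLE or upper-quartile scaling, unfiltered, at a stricter minimum of 1 CPM, with a replicate block and without each library in turn, and the comparison of receptor classes without each library and, chosen after seeing the data, without Tnfrsf21.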

Additional observations from a re-analysis of the deposited data

How the results depend on the processing

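With RLE or upper-quartile factors, DESeq2 or the 1 CPM filter, 11 of 11 called members kept their call, and limma-voom kept 10, losing Tnfrsf11a. DESeq2 called 13 members, adding Traf4 and Tnfrsf12a, 14 downstream genes and 3427 of the 28583 genes with any count. With no low-count filter 6 members were called (2 of them lower), 3 downstream genes and 1079 of the same 28583 genes. Replicate numbers 1 and 2 are shared by the genotypes, but same-numbered libraries did not deviate together (correlation -0.03 and 0.01 across genes). The deviations of the 2 wild-type libraries mirror each other, so these are not separate checks. Given the header number of Runx3 +/+ library 2, its partner is uncertain, and Runx3 +/WRPW library 3 was not compared with it. A fit with the replicate block called 5 members, 3 higher and 2 lower, 0 downstream genes and 754 in all, against 11, 6 and 1855 without it. That fit has fewer residual degrees of freedom, and Runx3 +/WRPW library 3, alone in its block, adds nothing to the genotype effect. Leaving out 1 library each gave 1 to 11 called members, 1 to 6 higher and 0 to 5 lower, 0 to 2 downstream genes and 277 to 1431 genes in all. The difference of the receptor classes between genotypes was 0.0055 on the log2 scale, and -0.07 to 0.10 without 1 library; it was 0.097 without Tnfrsf21, an alternative chosen after seeing the data. Tnfrsf21 and Cd40lg did not pass the 1 CPM filter.

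Log2 differences that turned sign were all of uncalled genes. Fas went to 0.0012 with upper-quartile factors and Tnfrsf21 to -0.21 in limma-voom. With 1 library left out, Fas ran from -0.13 to 0.052, Cd40lg from -0.65 to 0.50, Lta from -0.34 to 0.016, Tnfrsf14 from -0.019 to 0.21, Tnfrsf21 from -0.62 to 1.19, Tnfrsf4 from -0.21 to 0.30 and Traf2 from -0.082 to 0.13. The cause was not tested. Tnfrsf21 and Cd40lg had 4 to 34 counts per library, too few to read a direction.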
